A study of Mus musculus with 6 samples.

Results

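The SoxB genes are the 5 members of the B group of the Sox family of transcription factors, chosen by family membership and matched by symbol to identifiers in a table of 55400 genes. They comprise the SoxB1 genes Sox1, Sox2 and Sox3 and the SoxB2 genes Sox14 and Sox21. Their RNA was measured by poly(A) RNA sequencing in 6 libraries of motor neuron progenitors made in culture from C57BL/6 mouse embryonic stem cells that had been kept on feeder fibroblasts. The 3 Setd5sh and 3 control libraries were all labelled genotype WT, and all were collected on day 4. Embryoid bodies were started with 500 cells each and received 1 µM all-trans retinoic acid, a caudalizing signal, and 0.5 µM SAG, a Sonic hedgehog pathway agonist, from day 2. Doxycycline at 1 µg/mL for 36 h is described for both groups alike. By its form the name Setd5sh stands for a hairpin RNA that targets Setd5, a SET domain protein, but the labels spell out neither the hairpin, nor what the control cells carried, nor whether the lines were single clones. The comparison asks how expression in these progenitors differs when Setd5 is targeted. The labels leave unsaid whether replicates were separate cultures, so each p-value speaks of the spread among these libraries, and that spread may be technical.

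SoxB proteins bind DNA through an HMG box. SoxB1 proteins act mainly as activators, overlap in function and hold neural progenitors in an undifferentiated, dividing state, whereas SoxB2 proteins act mainly as repressors and, in the chick neural tube, Sox21 was found to oppose SoxB1 activity and favour neuronal differentiation. Sox2 is also a core factor of pluripotent stem cells, where it works with Pou5f1, and Sox1 is an early marker of committed neuroectoderm in the mouse. Sox14 is known from groups of postmitotic interneurons, among them V2 cells of the ventral spinal cord.

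Each SoxB gene has a single exon in the GENCODE M21 annotation of mm10. RefSeq promoter windows, from 250 bases before to 50 bases after the start on GRCm38.p6, matched 4 of the 5 genes by symbol. They are shown because they set the start of Sox14, which had no read in any library, beside those of Sox1, Sox2 and Sox21, which were transcribed. Capitals mark letters found on either strand for the CCAAT box, the TATA box TATAAA, the POU octamer ATGCAAAT, the SOX-type hexamer ACAAAG or its relative ACAATG, and no hit overlapped another.
Sox1: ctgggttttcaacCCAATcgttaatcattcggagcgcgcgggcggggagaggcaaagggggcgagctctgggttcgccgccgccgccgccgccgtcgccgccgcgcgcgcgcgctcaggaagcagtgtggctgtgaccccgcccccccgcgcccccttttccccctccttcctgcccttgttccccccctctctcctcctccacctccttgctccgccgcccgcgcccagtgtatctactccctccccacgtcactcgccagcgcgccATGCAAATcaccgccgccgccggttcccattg
Sox2: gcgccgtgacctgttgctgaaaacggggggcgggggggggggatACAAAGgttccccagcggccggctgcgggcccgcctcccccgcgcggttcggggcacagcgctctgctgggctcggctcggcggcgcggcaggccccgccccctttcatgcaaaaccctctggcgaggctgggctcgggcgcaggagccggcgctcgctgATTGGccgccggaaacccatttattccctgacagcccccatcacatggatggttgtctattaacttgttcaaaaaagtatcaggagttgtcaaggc
Sox21: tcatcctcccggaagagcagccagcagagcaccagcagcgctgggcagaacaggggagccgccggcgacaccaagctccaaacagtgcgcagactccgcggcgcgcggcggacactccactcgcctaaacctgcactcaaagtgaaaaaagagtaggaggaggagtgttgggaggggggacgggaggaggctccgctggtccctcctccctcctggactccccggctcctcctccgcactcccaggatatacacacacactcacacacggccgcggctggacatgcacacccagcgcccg
Sox14: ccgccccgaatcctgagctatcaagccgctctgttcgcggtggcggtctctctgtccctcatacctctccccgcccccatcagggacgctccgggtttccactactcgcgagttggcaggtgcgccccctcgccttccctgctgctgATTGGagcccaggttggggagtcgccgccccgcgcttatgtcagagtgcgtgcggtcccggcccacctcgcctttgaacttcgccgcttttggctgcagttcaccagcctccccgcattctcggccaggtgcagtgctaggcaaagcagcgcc
The windows are chr8:12395269-12395568 on the plus strand for Sox1, chr3:34649745-34650044 on the plus strand for Sox2, chr14:118236981-118237280 on the minus strand for Sox21 and chr9:99876121-99876420 on the minus strand for Sox14. For Sox21 and Sox14 the RefSeq start is also the GENCODE start. For Sox1 it lies inside the GENCODE gene, which starts at 12395295. The Sox2 window ends before the GENCODE gene starts, at 34650405. CCAAT or its reverse complement occurred in the Sox1, Sox2 and Sox14 windows and in 37.4% of all 32851 windows. The octamer occurred in the Sox1 window, with its first letter at base 19 after the RefSeq start and so inside the GENCODE exon, and in 1.74% of all windows. ACAAAG occurred in the Sox2 window, with its first letter at base -206, and in 18.7% of all windows, while TATAAA (13.6% of all) and ACAATG (12.6% of all) occurred in none of the 4. All 4 windows were rich in CpG, with observed over expected ratios of 1.07 for Sox1, 0.819 for Sox2, 0.687 for Sox21 and 0.82 for Sox14, against a median of 0.384. The silent gene's window was thus as GC-rich, at 66.0%, as those of Sox2, at 66.3%, and Sox21, at 65.7%.

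Total counts ranged from 19639303 to 32046466 per library. Setd5 stood at 14.4, 13.5 and 12.9 FPKM (read counts divided by exonic length and library total) in Setd5sh replicates 1, 2 and 3, and at 22.2, 18.8 and 16.7 FPKM in the control replicates. The 2 groups lay apart, and edgeR put the log2 fold change at -0.51 (SE 0.16) with an unadjusted p of 0.0143. Over 12199 tested genes, those with a mean of at least 1 FPKM, the edgeR adjusted p of Setd5 was 0.995. In that fit 0 genes, or 0.0%, passed an adjusted p of 0.05, while an unadjusted p under 0.05 was reached by 1.22% of tested genes, made up of 0.615% higher and 0.607% lower in Setd5sh. DESeq2 called 0 genes, and 2, or 0.0164%, when replicate numbers entered as a block. In FPKM, 5.21% of tested genes had groups that did not overlap. Progenitor markers were present, with Olig2 between 65.6 and 115.8 FPKM over the 6 libraries. Of the other-lineage markers, 4 neural crest genes summed to 0.22 to 0.33 FPKM in Setd5sh and 0.16 to 0.31 FPKM in control, with Tfap2b the highest by its mean over the 6 libraries. The 7 fibroblast and mesenchyme genes, led by Col1a2, summed to 7.06 to 9.13 FPKM in Setd5sh and 5.28 to 8.40 FPKM in control. The 6 mesoderm genes, led by Meox1, summed to 3.51 to 6.73 FPKM in Setd5sh and 4.39 to 9.03 FPKM in control. The 6 endoderm genes summed to 34.1 to 38.3 FPKM in Setd5sh and 23.5 to 36.9 FPKM in control, most of it Foxa2, which floor plate cells also express, while Afp stood at most at 0.02 FPKM.

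The SoxB genes spanned a wide range of levels in the same order in every library: Sox3, then Sox2, Sox1 and Sox21, with Sox14 at 0. Sox3 averaged 124.0 FPKM over the 6 libraries, Sox2 74.3, Sox1 26.2 and Sox21 6.19 FPKM. Neighbours in this order did not overlap: the lowest Sox3 value, 88.3 FPKM, lay above the highest Sox2 value, 83.8 FPKM, and the lowest Sox1 value, 20.7 FPKM, above the highest Sox21 value, 7.85 FPKM. Sox3 ranked between 281 and 426 among the 12199 tested genes by FPKM, Sox2 between 547 and 696, Sox1 between 1931 and 2733 and Sox21 between 5813 and 8027. None of the 4 tested SoxB genes passed the adjusted threshold between Setd5sh and control in edgeR or in any alternative run. Their log2 fold changes were -0.18 for Sox1, -0.02 for Sox2, 0.22 for Sox3 and 0.39 for Sox21, with a median of 0.10 against -0.04 over all tested genes. The samples are bulk RNA, so fewer cells expressing a gene and less of its RNA per cell cannot be told apart.

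**Figure D1:**
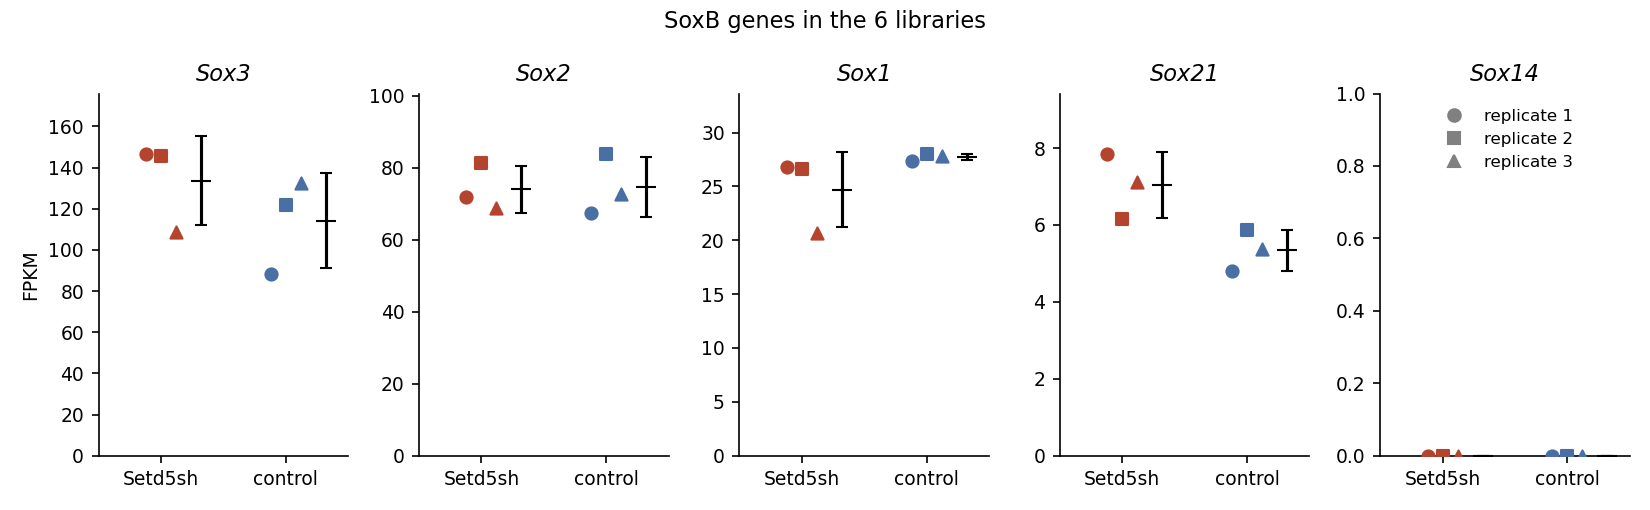
FPKM of each SoxB gene (vertical axes, each from 0) in the 3 Setd5sh and 3 control libraries, with marker shape giving the replicate number and the bar the mean ± SD. Sox3 is the highest, Sox14 is at 0 in all 6 libraries, and the groups lie apart for Sox21 and, through replicate 3 of Setd5sh by the widest margin, for Sox1.

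Sox3 (ENSMUSG00000045179, chromosome X, 60891366 to 60893430, minus strand), the SoxB1 gene with the highest RNA level here, stood at 147, 146 and 109 FPKM in Setd5sh replicates 1, 2 and 3 and at 88.3, 122 and 132 FPKM in the control replicates. The groups overlapped, with the lowest Setd5sh value below 2 of the 3 control values. Setd5sh averaged 133.7 ± 21.7 FPKM and control 114.2 ± 23.0 FPKM (SD, n = 3 each). By edgeR the difference was 0.22 in log2 (SE 0.19; adjusted p = 0.995). Its 95% interval, -0.22 to 0.67, spans 0.857-fold to 1.59-fold. Between libraries of the same number, Setd5sh stood at 166.1%, 119.6% and 82.2% of control, so the direction differed between pairs. Leaving out control replicate 1 gave a log2 fold change of 0.10, and leaving out Setd5sh replicate 3 gave 0.35; each is the lowest library of its group.

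Sox3 is GC-rich, at 66.4% of its transcript, against 50.5% for Sox2. The lowest libraries for Sox3, control replicate 1 and Setd5sh replicate 3, were also the lowest for GC-rich genes as a class. The median of 594 tested genes over 60% GC lay at 0.04, 0.20 and -0.14 in Setd5sh replicates 1, 2 and 3, and at -0.30, 0.10 and 0.09 in the control replicates, in log2 relative to the mean of the 6 libraries. Sox3 itself lay at 0.28, 0.23 and -0.18 in Setd5sh and at -0.41, -0.05 and 0.12 in control on that scale. Once trends on GC content and exonic length had been taken out library by library, the SD of Sox3 within groups was 0.20 in place of 0.26, while that of Sox1 was 0.24 in place of 0.16, that of Sox21 0.27 in place of 0.15 and that of Sox2 0.11 both times. Sox3 was then lowest in replicate 2 of each group, at -0.11 in Setd5sh and -0.28 in control. Its log2 range over the 6 libraries was 0.61 in place of 0.69. What GC content adds to the Sox3 values was not tested. For Sox3 the log2 fold change was 0.16 (SE 0.09) with the replicate number as a block.

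**Figure D2:**
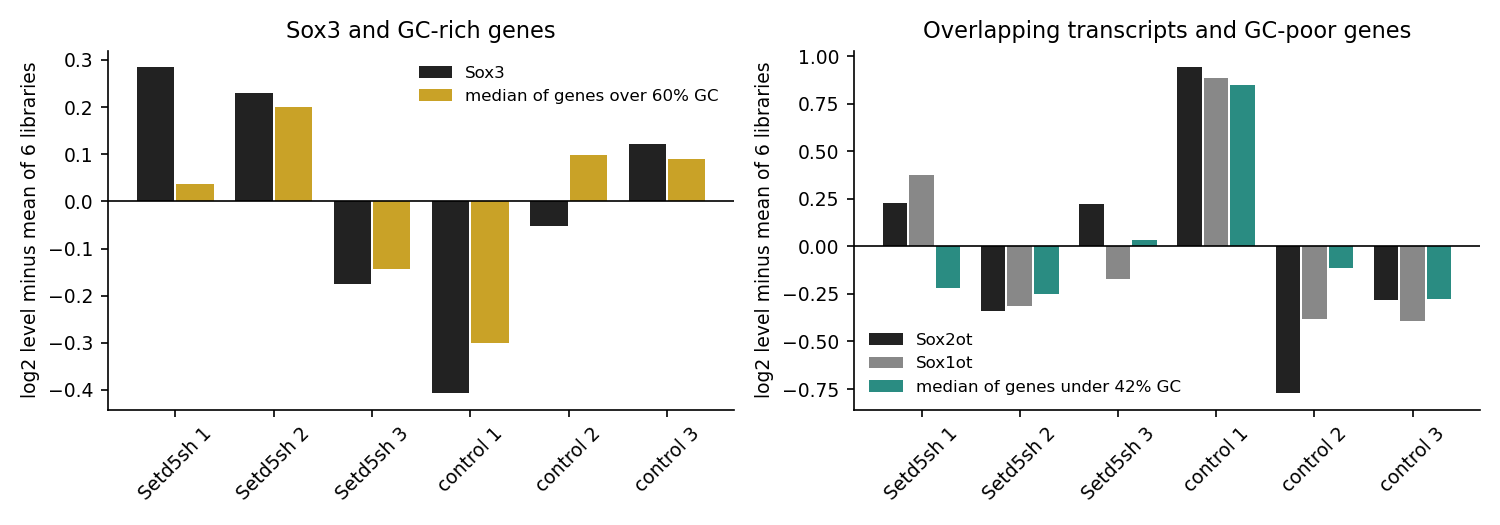
Log2 level in each library minus the mean of the 6 libraries. Left, Sox3 beside the median of 594 tested genes over 60% GC, both lowest in control replicate 1; right, the overlapping transcripts Sox2ot and Sox1ot beside the median of 1415 tested genes under 42% GC, all 3 highest in control replicate 1.

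Sox2 (ENSMUSG00000074637, chromosome 3, 34650405 to 34652461, plus strand), shared by neural progenitors and pluripotent cells, stood at 71.8, 81.3 and 68.9 FPKM in Setd5sh replicates 1, 2 and 3 and at 67.3, 83.8 and 72.7 FPKM in the control replicates. The groups overlapped fully, and in each the library numbered 2 was the highest in FPKM. With GC and length trends removed, control replicate 1 lay above control replicate 2, at 0.15 and 0.06 in log2 relative to the mean of the 6 libraries. The log2 fold change of -0.02 (SE 0.14) had a 95% interval of -0.34 to 0.30, a fold of 0.792 to 1.23, and an edgeR adjusted p of 0.997. The libraries numbered 2 were also the highest for pluripotency genes. A list of 10 summed to 29.2, 66.2 and 10.6 FPKM in Setd5sh replicates 1, 2 and 3, and to 20.5, 89.6 and 29.4 FPKM in control. Most of each sum was Dppa5a, at 25.6, 52.3 and 7.98 FPKM in Setd5sh and 15.2, 69.4 and 24.1 FPKM in control. Pou5f1, the stem cell partner of Sox2, stood at 0.86, 5.23 and 0.27 FPKM in Setd5sh and at 1.49, 8.31 and 1.93 FPKM in control. Sox2 varied far less than these genes, between 67.3 and 83.8 FPKM, and what their cells add to Sox2 was not tested.

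**Figure D3:**
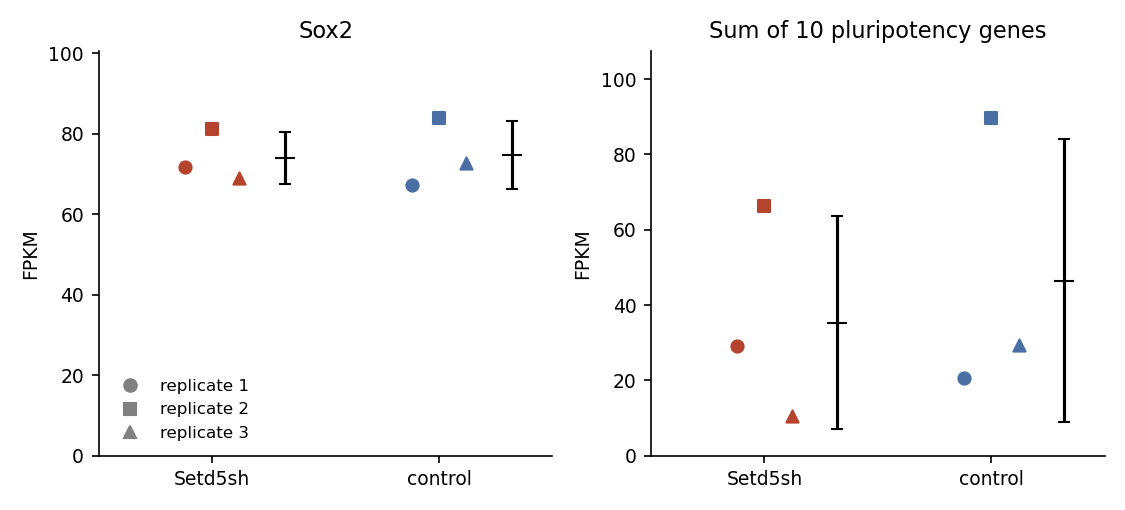
FPKM of Sox2 (left) and the summed FPKM of 10 pluripotency genes (right) in the Setd5sh and control libraries, with marker shape giving the replicate number and the bar the mean ± SD. Replicate 2 is the highest library of each group in both panels, at 81.3 and 83.8 FPKM for Sox2 and 66.2 and 89.6 FPKM for the sum.

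Sox1 (ENSMUSG00000096014, chromosome 8, 12395295 to 12400126, plus strand), the neuroectoderm marker, stood at 26.8, 26.7 and 20.7 FPKM in Setd5sh replicates 1, 2 and 3 and at 27.4, 28.0 and 27.8 FPKM in the control replicates. Every Setd5sh value was below every control value in FPKM, as was so for 2.14% of all tested genes, but Setd5sh replicate 3 stood lowest by the widest margin. The control values were the tightest of the family, with a coefficient of variation of 1.15%, against 14.2% in Setd5sh. The edgeR estimate was -0.18 in log2 (SE 0.15; 95% interval -0.53 to 0.18; adjusted p = 0.995). The exact permutation test on log2 FPKM, two-sided, returned p = 0.1, which is the least that 3 libraries against 3 can give. Without Setd5sh replicate 3 the log2 fold change was -0.06. GC and length offsets gave -0.27 with the replicate block (unadjusted p = 0.0318, adjusted p = 0.702 in edgeR). Without the block they gave -0.29 (unadjusted p = 0.132 in edgeR). With those trends removed the groups overlapped. Control replicate 1 then lay at 0.48 in log2 relative to the mean of the 6 libraries. Control replicates 2 and 3, at -0.06 and -0.01, lay below Setd5sh replicate 1, at 0.04. On TMM-scaled counts, where 2.66% of tested genes had every Setd5sh library below control, the groups overlapped.

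Sox21 (ENSMUSG00000061517, chromosome 14, 118233232 to 118237030, minus strand), the SoxB2 repressor, had the widest separation of the family. It stood at 7.85, 6.15 and 7.12 FPKM in Setd5sh replicates 1, 2 and 3, from 618, 646 and 531 reads, and at 4.80, 5.86 and 5.38 FPKM in the control replicates, from 584, 605 and 406 reads. Every Setd5sh library lay above every control library, as was so for 3.07% of all tested genes, and the libraries numbered 2 lay nearest to each other. The groups were also apart on TMM-scaled counts, as for 2.63% of tested genes. Setd5sh averaged 7.04 ± 0.853 FPKM and control 5.35 ± 0.531 FPKM (SD, n = 3 each), so that Setd5sh stood at 131.7% of control. The log2 fold change of 0.39 (SE 0.17; 95% interval -0.01 to 0.80) had an unadjusted p of 0.0555 and an adjusted p of 0.995 in edgeR, and so did not pass. The exact permutation test, two-sided, returned p = 0.1, again the least possible. Between libraries of the same number, Setd5sh stood at 163.5%, 104.9% and 132.3% of control. Each is higher, as any pairing must give when the groups lie apart. The log2 fold change lay between 0.29 without Setd5sh replicate 1 and 0.52 without Setd5sh replicate 2. Removal of GC and length trends left 0.28, with groups that overlapped and a wider spread within them, as given above; on that scale 2.04% of tested genes had every Setd5sh library above control and 3.09% below. The lncRNA gene Gm4675 runs the other way across the start of Sox21 and shares 713 of its 3799 exonic bases, and the strand setting of the counting is unknown here, so reads from the pair cannot be told apart there; Gm4675 itself had 13 to 35 reads in Setd5sh and 21 to 45 in control.

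Sox14 (ENSMUSG00000053747, chromosome 9, 99874106 to 99876170, minus strand), the other SoxB2 gene, had 0 reads in all 6 libraries. A count of 3 would have been 0.0701, 0.0525 and 0.074 FPKM in Setd5sh replicates 1, 2 and 3, and 0.0453, 0.0535 and 0.0731 FPKM in the control replicates, which are the limits that a count of 0 allows and cover counting error only. No fold change can be given, and Sox14 was the only SoxB gene under the minimum mean of 1 FPKM for testing. Other genes of V2 interneurons, where Sox14 is known, were also low: none of 8 reached the minimum, and they summed to 3.37 to 3.58 FPKM in Setd5sh and 2.61 to 3.24 FPKM in control. Gata3, which marks the V2b type, had the highest mean over the 6 libraries, at 1.07, 0.79 and 1.69 FPKM in Setd5sh and 0.64, 0.62 and 0.71 FPKM in control. Foxn4, a factor of V2 progenitors, was close to it and higher in control, at 0.83, 1.06 and 0.51 FPKM in Setd5sh and 1.03, 1.38 and 0.60 FPKM in control, and neither was tested.

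The make-up of the family was described from summed FPKM, with no test. SoxB1 genes together gave 245.3, 253.7 and 198.3 FPKM in Setd5sh replicates 1, 2 and 3 and 183.0, 233.8 and 232.9 FPKM in the control replicates, which overlapped. Sox3 made up 54.8% to 59.8% of this sum in Setd5sh and 48.3% to 56.8% in control. Sox1 made up 10.4% to 10.9% in Setd5sh and 11.9% to 15.0% in control, so its share was lower in every Setd5sh library. The ratio of Sox3 to Sox1 was 5.47, 5.47 and 5.26 in Setd5sh and 3.22, 4.35 and 4.76 in control. SoxB1 outweighed SoxB2 by 27.8 to 41.3 times in Setd5sh and by 38.1 to 43.3 times in control, a pair of ranges that overlapped. These genes differ in GC content, at 66.4% for Sox3, 56.9% for Sox1 and 58.3% for Sox21. After GC and length trends had been taken out, Sox3 relative to Sox1 was higher in every Setd5sh library than in any control library, but narrowly. In log2 relative to the mean of the 6 libraries, Setd5sh replicate 2 had Sox3 at -0.112 and Sox1 at -0.15. Control replicate 3 had Sox3 at -0.017 and Sox1 at -0.014. How often other gene pairs or shares lie apart was not counted. The SD of the log2 ratio of Sox3 to Sox1 over the 6 libraries was 0.29, as before.

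Transcripts that overlap SoxB genes varied between libraries more than the SoxB genes themselves. Sox2ot, a long noncoding RNA whose introns contain Sox2, shares no exonic base with it and stood at 2.25, 1.57 and 2.28 FPKM in Setd5sh replicates 1, 2 and 3 and at 3.60, 1.18 and 1.60 FPKM in the control replicates. Sox1ot, laid out in the same way around Sox1, stood at 1.61, 1.02 and 1.12 FPKM in Setd5sh and at 2.23, 0.99 and 0.95 FPKM in control. Both were highest in control replicate 1, where Sox2 was at its lowest in FPKM but not on other scales. On TMM-scaled counts Sox2 was lowest in Setd5sh replicate 3. Once corrected for GC and length, Sox2 was highest in control replicate 1, 0.15 above the mean of the 6 libraries in log2. The log2 fold changes of Sox2ot and Sox1ot were -0.09 (SE 0.42) and -0.18 (SE 0.40), with edgeR adjusted p = 0.995 for both. Control replicate 1 was also the highest library for the flippase gene Atp11b, the nearest coding neighbour of Sox2 on one side, at 16.2 FPKM against at most 8.44 FPKM in any other library. The log2 fold change of Atp11b was -0.55 (SE 0.38), which did not pass in edgeR. It stood apart in the same way for the 1415 tested genes under 42% GC, whose median there was 0.85 above the mean of the 6 libraries in log2, and Atp11b has 39.6% GC. With GC and length trends removed, the excess of Sox2ot in control replicate 1 was 0.31 in place of 0.94 and that of Atp11b 0.20 in place of 1.10, while that of Sox1ot, at 50.4% GC, was 0.94 in place of 0.88. Dnajc19, the nearest coding neighbour of Sox2 on the other side, has 40.3% GC but showed no such excess. It lay at 0.02 in control replicate 1, and at -0.66 with the trends removed. Dnajc19, Gpr180 beside Sox21 and the divergent noncoding gene Gm14662, 223 bases from the start of Sox3, had log2 fold changes of -0.08 (SE 0.14), 0.10 (SE 0.17) and 0.01 (SE 0.32), none of which passed in edgeR. The miRNA gene Gm25239 inside Sox1 had 0 reads, and the remaining neighbours Gm45560, Gm42692, Gm27611, A230072I06Rik, Spaca7, Cdr1 and Gm9376 were under the minimum for testing. Around Sox14, Cldn18 had at most 2 reads in any library and Il20rb stood at 0.39 to 0.62 FPKM in both groups.

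SoxB genes made up 50.6% to 57.6% of the summed FPKM of 20 Sox genes in Setd5sh and 50.8% to 55.7% in control. The other abundant members were the SoxC genes Sox4, Sox12 and Sox11, which are known from newly formed neurons, and the SoxD gene Sox13. Sox4 averaged 76.4 FPKM over the 6 libraries and its values overlapped those of Sox2. Of 15 other Sox genes 6 were tested, with 4 positive and 2 negative log2 fold changes, against 42.6% positive among all tested genes. Their median was 0.06, and 0 passed in edgeR. Sox13 came nearest, at 33.4, 31.4 and 34.3 FPKM in Setd5sh and 23.4, 28.0 and 30.3 FPKM in control, which put the groups apart, as for 3.07% of all tested genes in that direction, at 0.27 in log2 (SE 0.14). Sox17, Sox11 and Sox9 had 0.44 (SE 0.29), -0.17 (SE 0.20) and -0.15 (SE 0.21), and their groups overlapped.

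**Figure D4:**
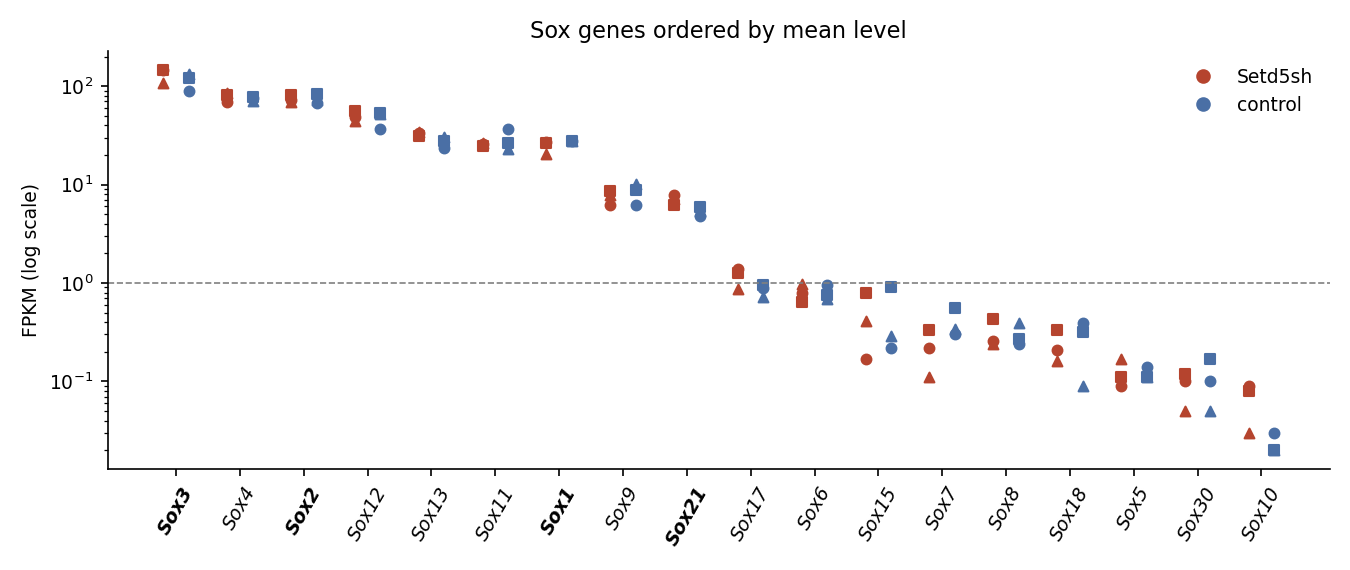
FPKM (log scale) of the Sox genes with any read, ordered by mean level, with Setd5sh libraries left of control libraries for each gene, marker shape giving the replicate number and values of 0 left out. The dashed line is the minimum mean of 1 FPKM for testing, and SoxB genes are in bold, with Sox3 first at a mean of 124.0 FPKM.

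**Figure D5:**
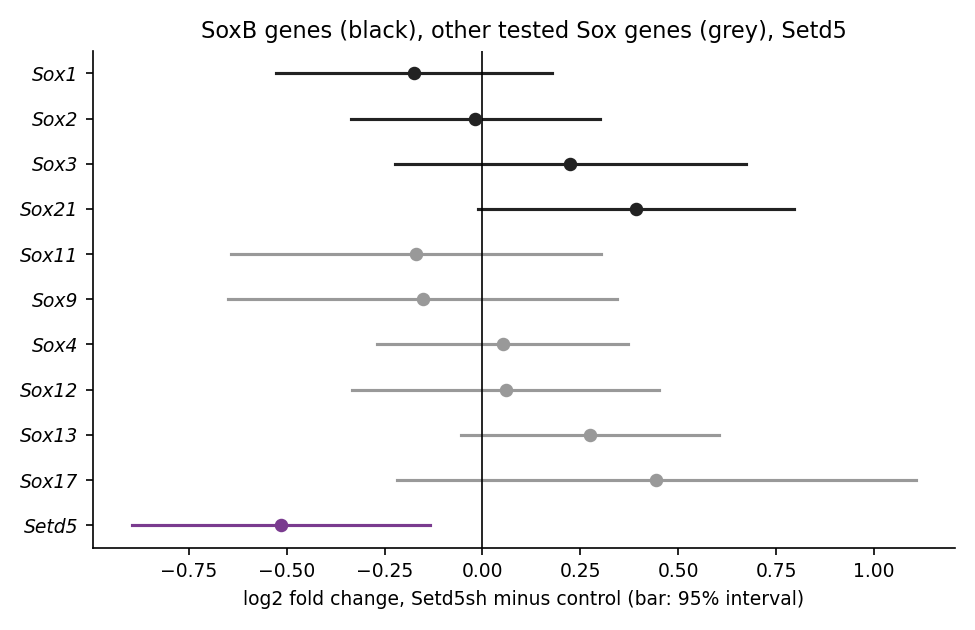
Log2 fold change, Setd5sh minus control, with its 95% interval from edgeR for the 4 tested SoxB genes, 6 other tested Sox genes and Setd5. The intervals of the Sox genes include 0, that of Sox21 narrowly, from -0.01 to 0.80.

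Genes that work with or beside the SoxB factors were read from fixed lists, and 0 of any list passed the adjusted threshold in edgeR. Counts of positive genes in each list stand against 42.6% positive among all tested genes. Of the SoxB partner factors, mostly POU proteins that bind DNA next to SoxB1 proteins, 8 of 9 were tested, 2 positive and 6 negative, with a median of -0.07. The log2 fold changes of Pou3f3, Pou2f1, Pou5f1 and Pou3f4 were 0.41 (SE 0.33), -0.35 (SE 0.31), -0.86 (SE 1.00) and 0.22 (SE 0.40), and Chd7, a chromatin remodeller, was the most abundant, with means of 18.6 ± 2.72 FPKM for Setd5sh and 18.9 ± 5.83 FPKM for control (SD, n = 3 each). Of 14 tested neural progenitor genes 8 were positive and 6 negative, with a median of 0.08 and 1 at an unadjusted p under 0.05, against 1.22% of all tested genes. That gene was Vim, an intermediate filament gene, at 112.6, 76.0 and 101.3 FPKM in Setd5sh and 70.2, 64.6 and 76.6 FPKM in control. The Notch target Hes5 was at 0.53 in log2 (SE 0.25) and Nes, a SoxB1 target, at 0.44 (SE 0.22), while Lin28a, an RNA-binding protein gene and the most abundant, averaged 171.2 FPKM in Setd5sh and 165.9 FPKM in control.

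All 11 tested proneural and early neuronal genes had positive log2 fold changes, against 42.6% of all tested genes. The median of the list was 0.48, and 6 of the list had an unadjusted p under 0.05 in edgeR, against 0.615% of all tested genes in that direction. The proneural factor Neurog1 stood at 18.8, 13.6 and 15.8 FPKM in Setd5sh and 9.55, 9.44 and 10.5 FPKM in control, and the tubulin gene Tubb3 at 53.5, 30.5 and 55.0 FPKM in Setd5sh and 19.0, 17.3 and 26.1 FPKM in control. Their groups did not overlap, as for 6 of the 11 and for 3.07% of all tested genes in that direction, nor did those of Ina and Cntn2, at log2 fold changes of 0.86 (SE 0.21) and 0.91 (SE 0.24). The list was chosen with its direction in these libraries already known. Of 9 tested ventral progenitor domain genes 8 were positive, with a median of 0.34 and 2 at an unadjusted p under 0.05, Olig1 at 0.55 (SE 0.21) and Dbx1 at 0.82 (SE 0.34). Nkx2-9, the most abundant of them, had means of 163.8 ± 14.5 FPKM for Setd5sh and 133.9 ± 16.2 FPKM for control (SD, n = 3 each). The 4 tested pluripotency genes were all negative, with a median of -0.58 that was within the spread between libraries: Dppa5a, the most abundant, ranged from 7.98 to 52.3 FPKM in Setd5sh and from 15.2 to 69.4 FPKM in control.

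Other genes followed single SoxB genes closely over the 6 libraries, as measured by the SD of the log2 ratio of gene to SoxB gene. For Sox21, with a median SD of 0.37 over all tested genes, the closest were Nfil3, Kdm4a and Nova2, at 0.05, 0.06 and 0.07. For Sox3 they included Dnph1 and Prmt1, at 0.05 and 0.05, and for Sox1 they were Chchd1, Ankzf1 and Pcbd1, at 0.05, 0.06 and 0.06. For Sox2 they were Lamc1, Snx27 and Fnip2, at 0.02, 0.03 and 0.03, and 1507 genes lay under 0.15, against 163 for Sox21. Between SoxB genes the SD was 0.16 for Sox1 and Sox2, 0.24 for Sox2 and Sox3, 0.26 for Sox3 and Sox21 and 0.37 for Sox1 and Sox21. No SoxB gene was thus among the closest to another, and likeness over 6 libraries, which share depth and GC trends, is a description and no test.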

How the data were processed

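Polyadenylated RNA of 6 libraries was used, 3 Setd5sh and 3 control, grouped and numbered by their titles. The authors deposited 1 table with raw read counts, FPKM and exonic lengths for 55400 Ensembl genes. HISAT2, SAMtools, HTSeq, DESeq2 and mm10 are named, without roles or versions, per the submitters' processing notes. Neither the annotation release nor the strand setting is given in these notes. Recomputing FPKM from the counts, exonic lengths and column totals returned the deposited values to within 0.005. Symbols, positions and GC content (longest transcript) came from GENCODE M21 on the same build, in which 99.5% of identifiers were found.

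Counts were tested with edgeR's quasi-likelihood test, TMM-scaled, over 12199 genes with a mean FPKM of at least 1, without a block, two-sided, with Benjamini-Hochberg adjustment and a threshold of 0.05. Fold changes are Setd5sh minus control, and 95% intervals use edgeR's SE. Exact permutation tests on log2 FPKM covered single genes. Alternatives were other scalings and filters, DESeq2, limma on log2(FPKM + 1) and log2(FPKM + 0.1), the replicate number as a block, offsets for GC and length trends, and leaving out each library. The offsets without the block were added after the data were seen. The fits were tested on simulated data. Versions were edgeR 4.0.16, DESeq2 1.42.0 and limma 3.58.1 in R 4.3.3, with scipy 1.17.1 and matplotlib 3.10.9 in Python.

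Same-numbered libraries deviated from their group means together, with correlations across genes of 0.185, 0.69 and 0.127. Each exceeds 0.1, but only 0.69 lay above every correlation between libraries of different numbers. Control replicate 1 had 0.191 with Setd5sh replicate 3, above both other same-numbered values. Deviations from a group mean cancel within the group, so the other correlations are not independent of the one at 0.69. Whether the numbers pair all the samples thus cannot be decided from the data. The reported tests stayed unpaired, and the replicate number entered only as the alternative with a block. Duplicate libraries were looked for by chi-square, whose lowest value per degree of freedom, 8.55, showed none. The members and lists were chosen with earlier results of these data known. Named are the members, Setd5, up to 4 genes of smallest p and the most abundant gene of each list, the annotated neighbours and the 3 genes most like each member; Olig2, Afp and Sox12 were added after values were seen. Values of 1 gene covered by this rule are not reported here. A gene most like Sox3 with no symbol is not named. The 95% intervals cover the spread between libraries, and the limits given for a count of 0 cover counting error only.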

Additional observations from a re-analysis of the deposited data

How the results depend on the processing

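The 4 tested SoxB genes gave 72 values under 18 alternatives, and none passed the adjusted threshold. Of these, 67 kept the direction of the reported value. The other 5 were all of Sox2, whose log2 fold change of -0.02 became 0.006 with upper quartile scaling and with filterByExpr and 0.044 with no filter, and ranged from -0.053 to 0.044 without single libraries. The fit with no filter moved the median of all genes to -0.105. Without single libraries Sox1 ranged from -0.25 to -0.06, Sox3 from 0.10 to 0.35 and Sox21 from 0.29 to 0.52, and Setd5 from -0.61 to -0.36. Over all genes, edgeR called 73 with no filter (29462 genes tested, 18 higher in Setd5sh), against 0 with the filter, and DESeq2 with the replicate block called 2. No other alternative called a gene. The edgeR fit with the replicate block called 0 genes and gave -0.19 for Sox1, -0.02 for Sox2, 0.23 for Sox3 and 0.39 for Sox21, and changed no call of a SoxB gene. With GC and length offsets and the replicate block, Sox1 was at -0.27 with the smallest unadjusted p of any alternative, 0.0318, and an adjusted p of 0.702, the smallest over its alternatives. Without the block, the same offsets gave Sox1 an unadjusted p of 0.132 in edgeR. The smallest adjusted p of Sox21 over its alternatives was 0.566, without control replicate 3. With 3 libraries a group, the 95% interval reached 1.74-fold for Sox21 and down to 0.694-fold for Sox1.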
